A study of Mus musculus with 3 samples.

Results

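The enzymes and transporters that carry glucose through glycolysis to lactate, the pentose phosphate enzymes and the HIF pathway genes that respond to low oxygen were examined in mouse LSK cells, the lineage-negative, Sca-1+ Kit+ fraction of blood-forming cells in which stem cells and early progenitors are found. A list of 38 genes was matched to the array annotation by symbol. Of these, 34 had a gene probe set, and 32 reached a signal of 110.4, the median of all signals, on at least 1 array. Over the whole array 12596 of 18193 named genes (69.2%) did so. Gpi1, Eno1 and G6pdx were not analysed here, Gapdh was represented only by array control probe sets, and Eno2 and Pdk2 stayed below 110.4 on every array. There were 3 arrays, 1 for each genotype: DKO (p53-/- and Mef-/-), p53 KO (p53-/-) and WT. The cells of each array were LSK cells, the DKO and p53 KO cells both lack p53, and Mef is the ETS transcription factor encoded by Elf4. Strain, age, sex, the number of animals and whether cells were pooled are not given in the sources used here.

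Glycolysis splits glucose to pyruvate, which lactate dehydrogenase turns into lactate, while the pentose phosphate pathway diverts glucose 6-phosphate to make NADPH and ribose. The HIF transcription factors are marked for destruction by oxygen-dependent prolyl hydroxylases, and when oxygen is low they raise many glycolytic genes, the glucose transporter gene Slc2a1 and the pyruvate dehydrogenase kinase gene Pdk1, whose product keeps pyruvate out of mitochondria. Blood stem cells are known for reliance on glycolysis and for active HIF-1, and p53 is known to restrain glycolysis in other cells, in part through Tigar.

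The 5 promoters printed here belong to a glucose transporter, an oxygen sensor, a HIF factor, a mitochondrial gatekeeper and a lactate transporter that were each at least 2-fold apart in a comparison below. They are RefSeq sequences of build GRCm38.p6, 250 bases before to 50 after the start that lies farthest upstream, read along the gene's strand. Capitals mark ACGTG and GCGTG on either strand, the core letters of the hypoxia response element. A CACGTG counts as an ACGTG on each strand. The Slc2a1 window is chr4:119108495-119108794 (plus strand), that of Egln3 is chr12:54203825-54204124 (minus strand), and that of Hif1a is chr12:73907617-73907916 (plus strand). The Pdk1 window is chr2:71872974-71873273 and the Slc16a1 window chr3:104638414-104638713, both on the plus strand.
Slc2a1: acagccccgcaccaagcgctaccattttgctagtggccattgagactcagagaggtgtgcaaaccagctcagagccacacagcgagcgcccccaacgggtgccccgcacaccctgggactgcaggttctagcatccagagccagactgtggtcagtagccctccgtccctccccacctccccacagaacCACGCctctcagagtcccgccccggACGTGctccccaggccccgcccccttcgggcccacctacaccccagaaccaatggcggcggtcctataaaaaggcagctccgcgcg
Egln3: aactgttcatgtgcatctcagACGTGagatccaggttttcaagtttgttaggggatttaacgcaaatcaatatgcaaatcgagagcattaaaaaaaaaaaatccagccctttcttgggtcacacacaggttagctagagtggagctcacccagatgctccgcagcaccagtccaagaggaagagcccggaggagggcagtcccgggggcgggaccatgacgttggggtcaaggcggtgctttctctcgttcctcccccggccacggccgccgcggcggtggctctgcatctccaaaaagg
Hif1a: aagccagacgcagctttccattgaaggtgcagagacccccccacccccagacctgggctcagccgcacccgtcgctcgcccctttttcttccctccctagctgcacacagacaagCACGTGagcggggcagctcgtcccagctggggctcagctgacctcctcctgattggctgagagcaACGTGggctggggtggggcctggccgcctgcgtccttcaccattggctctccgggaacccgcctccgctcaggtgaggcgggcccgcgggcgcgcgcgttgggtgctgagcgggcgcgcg
Pdk1: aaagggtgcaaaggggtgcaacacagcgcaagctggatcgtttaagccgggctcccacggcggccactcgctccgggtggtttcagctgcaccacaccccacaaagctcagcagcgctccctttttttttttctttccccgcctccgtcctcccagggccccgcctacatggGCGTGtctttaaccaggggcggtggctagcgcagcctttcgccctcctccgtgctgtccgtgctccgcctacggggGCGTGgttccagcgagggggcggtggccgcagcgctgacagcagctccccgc
Slc16a1: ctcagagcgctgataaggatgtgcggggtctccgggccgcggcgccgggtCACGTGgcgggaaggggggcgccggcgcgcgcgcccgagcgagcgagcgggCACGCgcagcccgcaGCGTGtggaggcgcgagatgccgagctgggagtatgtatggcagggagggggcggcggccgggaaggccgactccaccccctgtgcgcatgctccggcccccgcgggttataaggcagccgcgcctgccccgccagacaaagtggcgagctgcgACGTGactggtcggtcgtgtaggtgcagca
Slc2a1 held 1 ACGTG and 1 GCGTG, Egln3 held 1 ACGTG, and Hif1a held 3 ACGTG. Pdk1 held 2 GCGTG, and Slc16a1 held 3 ACGTG and 2 GCGTG. Of 36 listed genes with a RefSeq window, 29 (80.6%) held either motif in the window farthest upstream, against 11848 of 27025 genes (43.8%) in all. Median GC content was 62.2% in the listed genes and 52.7% in all genes, so the windows differed in base composition too. Ldha, with 5 ACGTG and 2 GCGTG, had the most matches of these windows. The windows of Pkm and Vegfa farthest upstream held no match, and a downstream window of each held 2. A match is a stretch of letters and not a shown binding site.

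The deposited signals had been scaled to the same trimmed mean, yet the 45101 probe sets had a median of 129 for DKO, 105 for p53 KO and 98.0 for WT. Kit, Cd34, Flt3 and the other 5 LSK markers with a probe set were all measured on every array, while Sca-1 (Ly6a) was not analysed here. Elf4 gave 151, 182 and 57.4 by its brighter probe set on the DKO, p53 KO and WT arrays, so it was near 110.4 throughout and was not lower on the DKO array than on WT. Whether that probe set lies in the deleted part is not given, and p53 itself was not analysed here. DKO, p53 KO and WT therefore mean the arrays so labelled. The Gapdh control probe sets at the 3' end gave 16260, 17865 and 17095, those at the 5' end gave 2755, 2703 and 2923, so the 3' excess was 5.90-fold, 6.61-fold and 5.85-fold. For Actb, the actin control, it was 9.19-fold, 6.20-fold and 8.29-fold, so the 2 controls put the arrays in different orders. Gapdh is the glycolytic dehydrogenase often used as a loading control. Over its control probe sets at both ends and between them, log2 differences ran from -0.14 to 0.06 in the 3 comparisons.

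With 1 array per genotype there was no replicate error and no test, and each difference compares a pair of arrays. Log2 differences were taken after signals below 110.4 were set to that value, and a difference of 1 is 2-fold. Between the brightest and the next measured probe set of the same gene, the median gap in log2 difference over 5505 genes was 0.33 (DKO against WT), 0.29 (p53 KO against WT) and 0.34 (DKO against p53 KO). For 18 listed genes with a further measured probe set, it was 0.29, 0.18 and 0.21. This gap measures disagreement between probes and holds no variation between animals or sorts. It is given for scale.

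**Figure D1:**
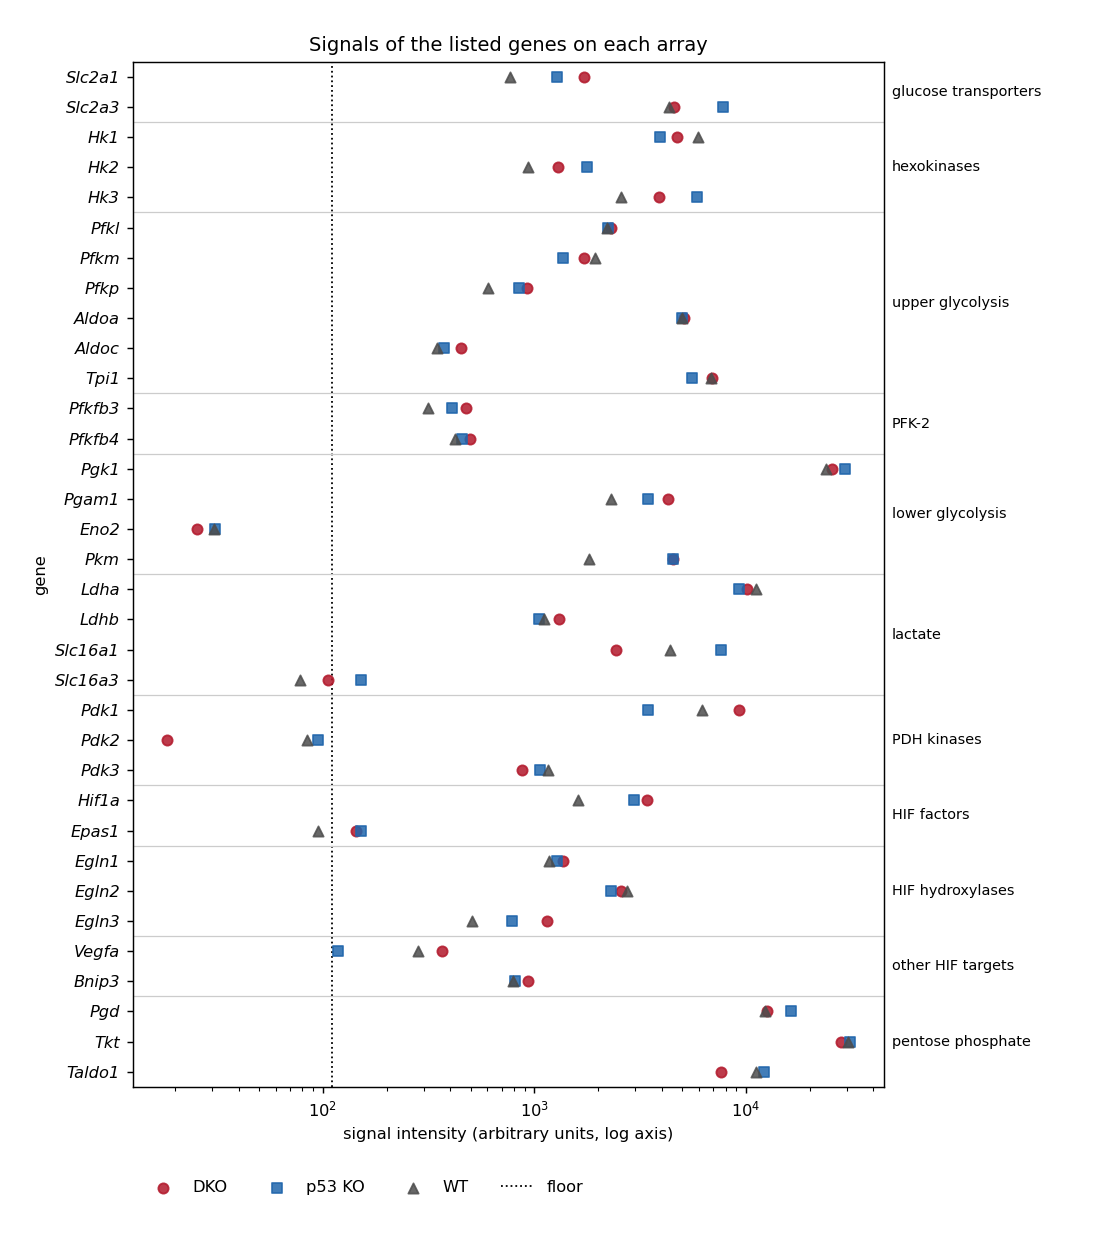
Signal intensity (arbitrary units, log axis) of the 34 listed genes with a gene probe set, grouped by role, on the DKO, p53 KO and WT arrays; 1 point is 1 array and the dotted line is 110.4. The WT point lies to the left for Slc2a1, Pkm, Hif1a and Egln3, the p53 KO point is lowest for Pdk1 and Vegfa, and the Slc16a1 points run from DKO through WT to p53 KO.

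Against WT, 4 of 32 measured listed genes (12.5%) were at least 2-fold higher on the DKO array, where 5.22% of all measured genes were. These were Pkm, Egln3, Slc2a1 and Hif1a. None of the 32 was at least 2-fold lower, against 3.10% of all. On the p53 KO array 2 of 32 (6.25%) were at least 2-fold higher than on WT, namely Pkm and Hk3, against 6.51% of all measured genes, and 1 of 32 (3.13%), Vegfa, was lower, against 3.19%. For DKO against p53 KO, 2 of 32 (6.25%) were at least 2-fold higher, Vegfa and Pdk1, against 4.10% of all, and 1 of 32 (3.13%), Slc16a1, was lower, against 5.93%. The shares for p53 KO against WT lay near those of all measured genes. At 1.5-fold, 8 of 32 were higher on DKO than on WT (17.1% of all) and 1 lower (9.52%), and 8 were higher on p53 KO than on WT (15.4%) and 3 lower (12.5%). Between the knockout arrays, 2 passed 1.5-fold upward on DKO (17.0%) and 4 downward (12.2%). Fewer cells of a type and less RNA per cell cannot be told apart in these bulk samples.

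The middle of the list moved little. The median log2 difference of the 32 genes was 0.23 for DKO against WT, where that of all measured genes was 0.07. It was 0.12 for p53 KO against WT, where that of all was 0.00, and 0.12 for DKO against p53 KO, where that of all was 0.11. For DKO against p53 KO, 25 of 32 listed genes (78.1%) lay within 0.5 of 0, as did 64.3% of all measured genes. For the comparisons with WT, 65.6% (DKO) and 62.5% (p53 KO) of listed genes did, near the 66.9% and 65.9% of all genes.

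The WT array had the lowest signal of the 3 for 19 of 32 listed genes (59.4%), and for 31.0% of all measured genes. The DKO array was highest for 17 listed genes (53.1%) and for 42.2% of all, and lowest for 4. With cyclic loess scaling WT was lowest for 20 of 32 listed genes (62.5%) and for 30.1% of all. The comparisons of DKO and of p53 KO with WT share that 1 WT array, so a trait of its sample cannot be told apart from genotype.

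**Figure D2:**
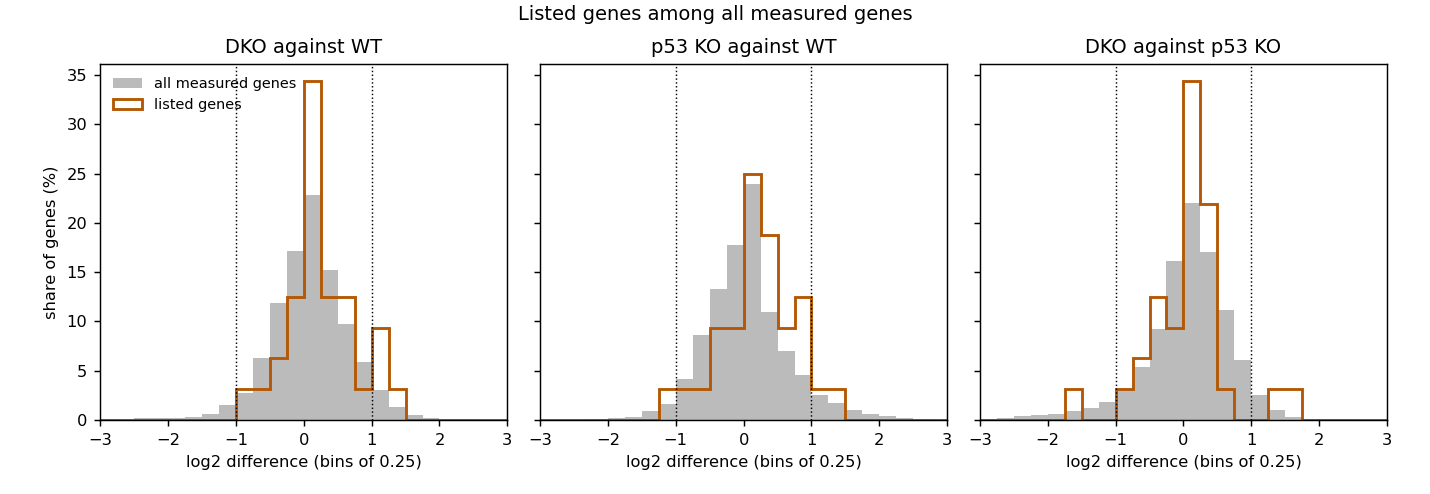
Share of genes (%) by log2 difference in bins of 0.25 for the 32 measured listed genes (outline) and all 12596 measured genes (grey), for each comparison, drawn from -3 to 3. The outline peaks in the same bin as the grey shape in each comparison, with 4 listed genes beyond 2-fold on the right for DKO against WT and none on the left.

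Glucose enters cells through Slc2a1, the broadly expressed transporter GLUT1, and Slc2a3, the high-affinity transporter GLUT3. Slc2a1 signal was 1723 on DKO, 1273 on p53 KO and 767 on WT, in that order from high to low. The log2 difference was 1.17 (2.25-fold) for DKO against WT and 0.73 for p53 KO against WT. Its other 2 probe sets gave 0.95 and 1.21 for DKO against WT, and 0.20 and 0.47 for p53 KO against WT. Slc2a3 ran otherwise, with signals of 4553, 7745 and 4323, so the p53 KO array stood alone. It was 0.84 above WT on p53 KO and differed by 0.07 on DKO, and its further measured probe set gave 1.02 and -0.22.

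Hexokinases trap glucose by phosphorylating it. Hk3, the hexokinase typical of myeloid cells, had signals of 3900 on DKO, 5893 on p53 KO and 2564 on WT. For p53 KO against WT the log2 difference was 1.20 (2.30-fold), and 1.02 by its other probe set. The DKO array lay between the others, 0.61 above WT. Hk2, the inducible form that binds mitochondria, showed the same order at 1290, 1771 and 929, with log2 differences of 0.47 for DKO and 0.93 for p53 KO against WT. Hk1, the form used by most tissues and by red cells, was instead highest on WT, at 4718, 3933 and 5939, with log2 differences of -0.33 and -0.59 from WT. Its other probe set, below 110.4 on p53 KO, gave -0.44 on DKO and -0.72 or lower on p53 KO. Monocyte and granulocyte markers, given below, had medians of 1.47 and 1.05 for p53 KO against WT, and 0.00 and -0.33 for DKO against WT. B cell and megakaryocyte markers were higher on p53 KO too, with medians of 2.23 and 1.22. What part any of these cells had in the Hk3 signal was not tested.

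Of 6 measured genes of the next steps, which rearrange and split the sugar, none was 2-fold apart in a comparison. All 6 were higher on DKO than on p53 KO, by 0.03 to 0.33, as were 58.8% of all measured genes, and Pfkl and Aldoa changed sign under another scaling. The phosphofructokinase genes Pfkl, Pfkm and Pfkp encode the enzyme that commits glucose to glycolysis. Pfkl signal was 2293, 2227 and 2213 on the DKO, p53 KO and WT arrays by its brightest probe set, a spread within 0.05 on the log2 scale. Its dimmer probe sets were less even, at 0.19 and 0.46 for DKO and -0.12 and 0.30 for p53 KO against WT. Pfkm was at 1706, 1366 and 1926, lowest on p53 KO (-0.50 against WT). Pfkp was at 920, 842 and 605, higher than WT by 0.60 on DKO and 0.48 on p53 KO, though its further measured probe set gave only 0.25 and 0.00.

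The aldolase gene Aldoa, whose product splits fructose bisphosphate, was even across the arrays on 5 probe sets. Its brightest gave 5082, 4980 and 4961. Over all 5, log2 differences ran from -0.04 to 0.16 for DKO against WT and from -0.01 to 0.23 for p53 KO against WT. Aldoc, a second aldolase, was dimmer at 452, 373 and 347. Tpi1, triose phosphate isomerase, was at 6934, 5526 and 6839, with p53 KO 0.31 below WT and its other probe sets at -0.46 and -0.26. Pfkfb3 and Pfkfb4 make and remove the activator of phosphofructokinase. Pfkfb3 was at 473, 409 and 313 (0.59 for DKO and 0.38 for p53 KO against WT). Its other measured probe set, below 110.4 on p53 KO, gave -0.03 on DKO and -0.19 or lower on p53 KO. Pfkfb4 lay within 0.23 of WT on both knockout arrays.

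Energy is recovered in the lower steps, where Pkm, Pgam1 and Pgk1 were measured by gene probe sets. Pkm, pyruvate kinase of most tissues, makes pyruvate in the last step and had signals of 4505 on DKO, 4502 on p53 KO and 1819 on WT. Its log2 difference from WT was 1.31 on each (2.48-fold on DKO and 2.47-fold on p53 KO), the largest of the list for both comparisons with WT. A single probe set was named for Pkm, so no other probe set checks it. Pgam1, phosphoglycerate mutase, followed the order of Slc2a1 at 4264, 3430 and 2309, with log2 differences of 0.89 for DKO and 0.57 for p53 KO against WT, and likewise has 1 probe set. Pgk1, which makes the first ATP of the pathway, was very bright at 25568, 29473 and 23919. Its log2 difference from WT was 0.10 on DKO and 0.30 on p53 KO, and its dimmer probe sets gave 0.42 and 0.78 on DKO and 0.43 and 0.56 on p53 KO. These 3 were higher than WT on both p53-null arrays, as were 55.9% (DKO) and 46.2% (p53 KO) of all measured genes, with Pkm alone past 2-fold. Gapdh, of the same steps, was not higher by its control probe sets on DKO and lay between -0.11 and 0.06 on p53 KO.

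Pyruvate is then turned into lactate and exported. Ldha, the muscle-type subunit of lactate dehydrogenase and a classical HIF target, was at 10146, 9268 and 11125, so its log2 difference from WT was -0.13 on DKO and -0.26 on p53 KO, and under cyclic loess, quantile or centred scaling the DKO value ran from -0.20 to 0.01. Ldhb, the heart-type subunit, was at 1310, 1048 and 1106 by its brightest probe set. The other 3 probe sets of Ldhb parted the DKO array more clearly, at 0.72 to 0.91 against WT and 0.73 to 1.06 against p53 KO.

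Slc16a1, the lactate and pyruvate transporter MCT1, had signals of 2436 on DKO, 7656 on p53 KO and 4357 on WT. DKO was lowest and p53 KO highest, with a log2 difference of -1.65 (0.318-fold) for DKO against p53 KO. From WT the difference was -0.84 on DKO and 0.81 on p53 KO. Its only other probe set stayed below 110.4. Slc16a3, the low-affinity exporter MCT4 and a HIF target, was at 105, 152 and 78.1 and passed 110.4 on the p53 KO array alone, at least 0.46 above the others.

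**Figure D3:**
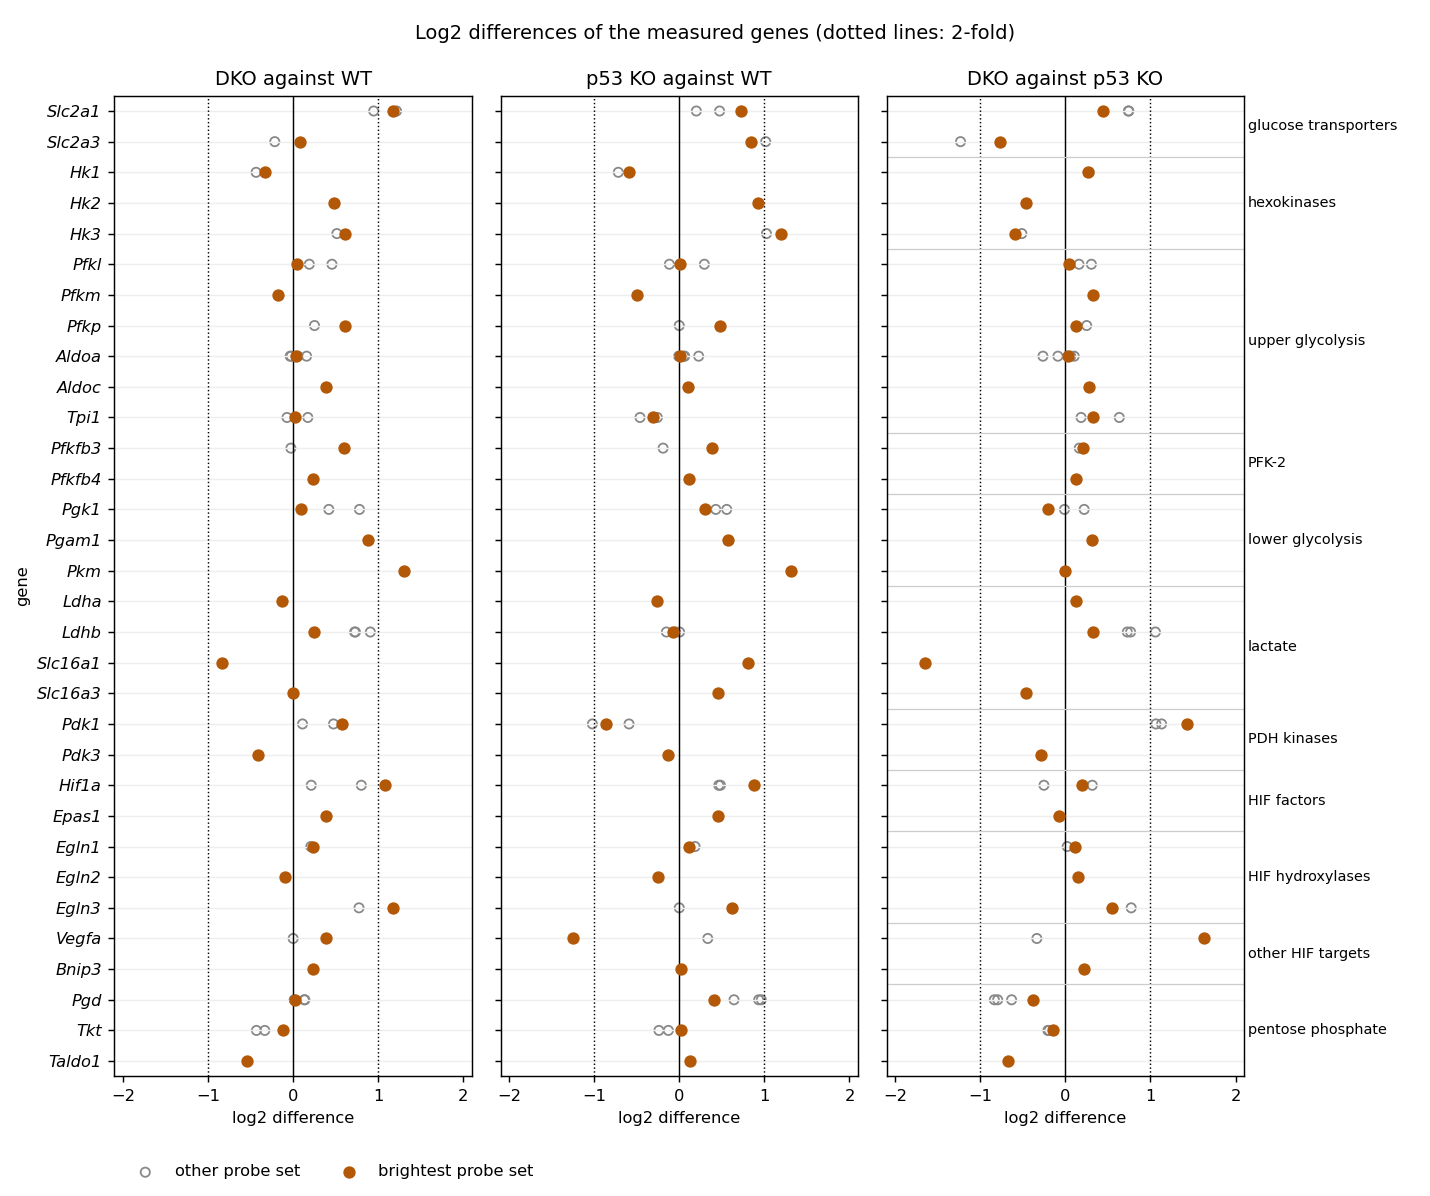
Log2 difference of each of the 32 measured listed genes, by role, for DKO against WT, p53 KO against WT and DKO against p53 KO; filled points are the brightest probe set, open points other measured probe sets, and dotted lines 2-fold. Slc2a1, Pkm, Hif1a and Egln3 pass the right line for DKO against WT, and Pdk1 and Vegfa for DKO against p53 KO, where the open point of Vegfa lies on the other side of 0.

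Pyruvate dehydrogenase kinases switch off the enzyme that feeds pyruvate to the citric acid cycle. Pdk1 signal was 9242 on DKO, 3432 on p53 KO and 6212 on WT. The p53 KO array was lowest by 3 measured probe sets, and the log2 difference for DKO against p53 KO was 1.43 (2.69-fold) by the brightest and 1.13 and 1.06 by the others. Against WT it was 0.57 on DKO and -0.86 on p53 KO, with -1.02 and -0.59 by the others on p53 KO. Pdk3 was at 875, 1064 and 1163, 0.41 below WT on DKO. Pdk2 remained below 110.4 throughout.

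Hif1a encodes the oxygen-regulated subunit of HIF-1, whose protein level these arrays do not measure. Its signal was 3396 on DKO, 2958 on p53 KO and 1603 on WT, so WT lay apart from both p53-null arrays. The log2 difference from WT was 1.08 (2.12-fold) on DKO and 0.88 on p53 KO. By its other measured probe sets it was 0.80 and at least 0.21 on DKO, and 0.48 and at least 0.46 on p53 KO. Epas1, which encodes HIF-2α, was dim at 144, 151 and 94.9, at least 0.38 and 0.46 above WT.

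The prolyl hydroxylases that mark HIF for destruction did not move as a group. Egln3, itself a HIF target, had signals of 1145 on DKO, 781 on p53 KO and 507 on WT, in the order shown by Slc2a1 and Hif1a. Its log2 difference from WT was 1.17 (2.26-fold) on DKO and 0.62 on p53 KO, and the dimmer probe set, below 110.4 on WT, gave at least 0.77 on DKO. Egln1, the main oxygen sensor, was at 1371, 1272 and 1171, within 0.23 of WT. Egln2 was at 2568, 2308 and 2740, within 0.25 of WT.

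Among targets of HIF outside metabolism, Vegfa, the vessel growth factor, had signals of 366 on DKO, 118 on p53 KO and 281 on WT. The p53 KO array was thus close to 110.4. Log2 differences were -1.25 (0.422-fold) for p53 KO against WT and 1.63 (3.09-fold) for DKO against p53 KO. Its other probe set, at 13.2, 139 and 41.6, ran the other way and passed 110.4 on the p53 KO array alone, so the direction for Vegfa rests on 1 probe set. Bnip3, a mitophagy receptor, was even at 934, 805 and 796.

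The pentose phosphate enzymes were bright and none was 2-fold apart. Pgd, which makes the second NADPH of the pathway, was at 12574, 16346 and 12336, highest on p53 KO. Its log2 difference for p53 KO against WT was 0.41, and its 3 dimmer probe sets gave 0.64, 0.96 and 0.93. Tkt, transketolase, was at 28059, 30958 and 30459 by its brightest probe set. Its dimmer probe sets were highest on WT, and gave -0.43 and -0.33 for DKO and -0.24 and -0.13 for p53 KO against WT. Taldo1, transaldolase, was at 7655, 12211 and 11185, lowest on DKO, with log2 differences of -0.55 against WT and -0.67 against p53 KO. All 3 were lower on DKO than on p53 KO, by 0.14 to 0.67, as were 39.7% of all measured genes.

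Further genes of these pathways were taken from a list of 92, of which 84 had a probe set and 73 were measured. The list was chosen with earlier results of these data known. On DKO against WT, 6 of 73 (8.22%) were at least 2-fold higher and 7 (9.59%) lower, where 5.22% and 3.10% of all measured genes were. On p53 KO against WT it was 6 (8.22%) and 5 (6.85%), where 6.51% and 3.19% of all were, and on DKO against p53 KO it was 7 (9.59%) and 8, where 4.10% and 5.93% were. Their medians were -0.20, -0.15 and -0.03, below those of all measured genes. Of 9 measured genes of pyruvate entry to mitochondria, 7 on DKO and 8 on p53 KO were lower than on WT by sign, as were 41.1% and 47.0% of all measured genes, with medians of -0.54 and -0.37, and 1 passed 2-fold. This was Dld, the shared dihydrolipoamide dehydrogenase, at 773, 1243 and 1679 on the DKO, p53 KO and WT arrays (-1.12 for DKO against WT). Pdp1, the phosphatase that reverses the Pdk enzymes, was at 444, 205 and 349, 1.11 higher on DKO than on p53 KO, and its other probe set, at 223, 125 and 99.3, gave 0.83 but was lowest on WT.

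Pyruvate kinase of liver and red cells, Pklr, ran opposite to Pkm, at 270 on DKO, 515 on p53 KO and 1325 on WT. Its log2 difference from WT was -2.29 on DKO and -1.36 on p53 KO, or -0.87 and -0.71 by its other probe set. Bpgm, which makes the red cell regulator of haemoglobin 2,3-bisphosphoglycerate, was at 1775, 7756 and 2149, and the log2 differences of its 3 probe sets for DKO against p53 KO were -2.13, -2.01 and -2.06. Tigar, the p53 target that lowers the activator of phosphofructokinase, was at 270, 220 and 129 and so was not lower on the p53-null arrays. Its log2 difference from WT was 1.06 on DKO (0.64 to 1.06 under other processing) and 0.77 on p53 KO, with the WT signal near 110.4. Its other probe sets passed 110.4 on DKO alone, at 188 and 117. The lactate transporter gene Slc16a7 was at 340, 348 and 144. Phosphoglucomutase gene Pgm2 was at 548, 562 and 1127. Slc2a4, the insulin-responsive transporter, and the sperm dehydrogenase gene Gapdhs were dim, at 75.3, 305 and 116 and at 219, 243 and 119.

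In gluconeogenesis, Fbp1, which removes a phosphate from fructose bisphosphate, was at 976 on DKO, 460 on p53 KO and 354 on WT. Its log2 difference on DKO was 1.47 from WT and 1.09 from p53 KO. G6pc3, the broadly expressed glucose 6-phosphatase, was at 810, 367 and 686, and Pcx, pyruvate carboxylase, at 192, 487 and 263. No other pentose phosphate gene of 7 measured was 2-fold apart. Of 13 measured HIF partners and regulators only Hif3a, an inhibitory HIF, passed 2-fold, at 274, 261 and 673. Its other probe sets were near 110.4 and gave at least 0.06, and -0.26 or lower, for DKO against WT.

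Other HIF target genes parted in both directions between the knockout arrays. Of 23 measured, 4 (17.4%) were at least 2-fold higher and 5 (21.7%) lower on DKO against p53 KO, where 4.10% and 5.93% of all measured genes were. The median was 0.27, where that of all was 0.11. Because the list was chosen with earlier results of these data known, these shares are no test. The higher ones were Ddit4, an inhibitor of mTOR signalling, Ndrg1, Car9, a surface carbonic anhydrase, and Ak4, a mitochondrial adenylate kinase. Ddit4 was at 1409 on DKO, 593 on p53 KO and 622 on WT. Car9 was at 596, 218 and 285, and Ak4 at 1201, 442 and 509. By its brightest probe set Ndrg1 was at 7686, 3391 and 4042. Its log2 difference for DKO against p53 KO was 1.18, and 0.33 to at least 1.09 by 4 other probe sets. These 4 genes were lowest on p53 KO by the brightest probe set, as were Pdk1 and Vegfa. All of them were picked for being at least 2-fold lower there than on DKO. The p53 KO array was lowest for 8 of 32 listed genes (25%) and for 34.7% of all measured genes.

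The 5 lower ones on DKO were Tfrc, Narf, Hmox1, Ero1a and Mxi1. Tfrc, the transferrin receptor that red cell precursors use to take up iron, was at 2999 on DKO, 16067 on p53 KO and 8115 on WT, with a log2 difference of -2.42 for DKO against p53 KO. Narf was at 173, 713 and 425. Hmox1, which breaks down haem, passed 110.4 on p53 KO alone, at 390, so the log2 difference for DKO against p53 KO was -1.82 or lower. Ero1a, an oxidase of the endoplasmic reticulum, was at 2011, 4312 and 2324, and Mxi1, a Myc antagonist, at 1590, 3318 and 2104. Highest on WT, with a 2-fold gap to DKO or p53 KO, were Selenbp1 at 1431, 1810 and 3220, Fam162a at 1453, 1097 and 2416, and Angptl4 at 738, 403 and 1031. Gys1, glycogen synthase, was at 408, 577 and 227.

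**Figure D4:**
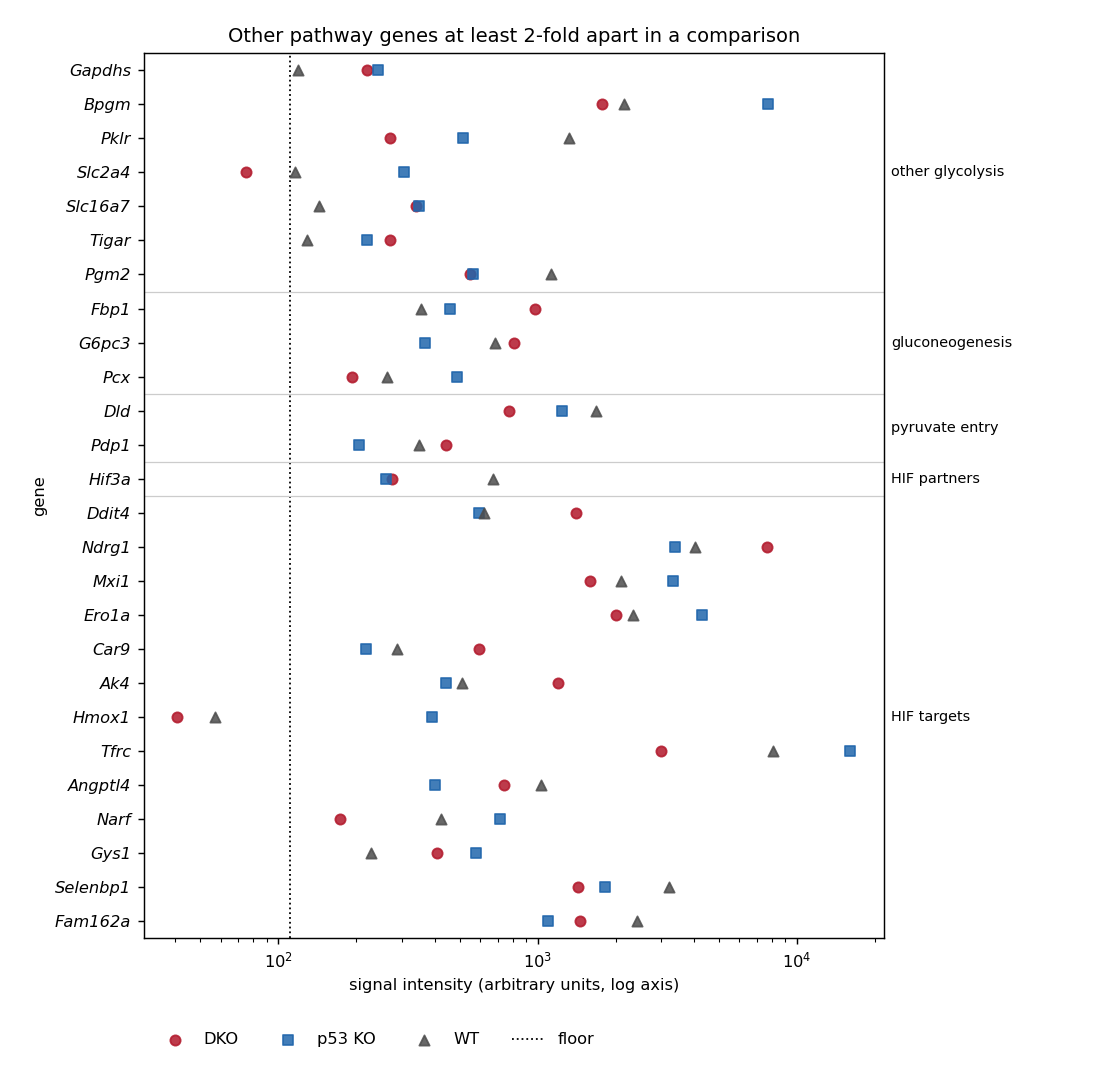
Signal intensity (arbitrary units, log axis) on the DKO, p53 KO and WT arrays of the further pathway genes at least 2-fold apart in a comparison; 1 point is 1 array and the dotted line is 110.4. Ddit4, Ndrg1, Car9 and Ak4 are highest on DKO, and Bpgm, Tfrc, Hmox1 and Ero1a are highest on p53 KO.

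Several lists of cell type markers had larger median differences than the listed genes. All 11 measured erythroid markers were lower on DKO than on WT and than on p53 KO, as were 41.1% and 39.7% of all measured genes. By at least 2-fold, 8 and 9 markers were lower, as were 3.10% and 5.93% of all. The erythroid markers had medians of -1.68 and -2.18. Their summed signal was 33867 on DKO, 116423 on p53 KO and 111602 on WT, and Hba-a1 was below 110.4 on every array. Klf1 was at 1972, 9033 and 12847, and Alas2 at 1091, 11459 and 1787. Slc16a1, Bpgm, Tfrc and Pklr were also lower on DKO than on p53 KO, as were 11 of 32 listed genes (34.4%) and 39.7% of all measured genes. The other probe set of Pklr gave only -0.16, and Bpgm on DKO differed from WT by -0.28. Hk1, also used by red cells, was 0.26 higher on DKO than on p53 KO. The part of erythroid cells in these differences was not tested.

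On the p53 KO array, 7 of 9 monocyte and macrophage markers and 5 of 10 granulocyte markers were at least 2-fold higher than on WT. Of all measured genes 6.51% were. The marker medians were 1.47 and 1.05. Summed monocyte signal was 24047 on DKO, 58167 on p53 KO and 22838 on WT, and summed granulocyte signal was 113950, 202289 and 121555. Of the B cell markers 7 of 8 were at least 2-fold higher on p53 KO, with sums of 2907, 6549 and 1792, and of the megakaryocyte markers 5 of 7, with sums of 7242, 12780 and 4206. Both counts stand against the same 6.51% of all measured genes. T cell markers were mostly below 110.4, with 2 of 5 measured. Of the 32 listed genes, 10 (31.25%) were highest on p53 KO, among them Hk3, Hk2, Slc2a3 and Pgd, as were 28.9% of all measured genes. On that array 8 listed genes (25%) were lowest, as were 34.7% of all. Between DKO and WT the monocyte markers parted evenly, with 4 higher and 4 lower on DKO and a median of 0.00. Other lists were less even between DKO and WT. On DKO 7 of 8 LSK, 6 of 7 megakaryocyte and 8 of 8 B cell markers were higher, with medians of 0.43, 0.81 and 0.67. Of the granulocyte markers 4 were higher and 6 lower, with a median of -0.33. Of all measured genes 55.9% were higher and 41.1% lower on DKO than on WT. LSK markers had a summed signal of 28169 on DKO, 14887 on p53 KO and 17248 on WT. Their sum was lower on p53 KO than on WT, while 5 of 8 single markers were higher, as were 46.2% of all measured genes. The LSK markers had a median of 0.13, while Kit (-0.99) and Flt3 (-0.68) were lower. What part these cells had in the listed genes was not tested.

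**Figure D5:**
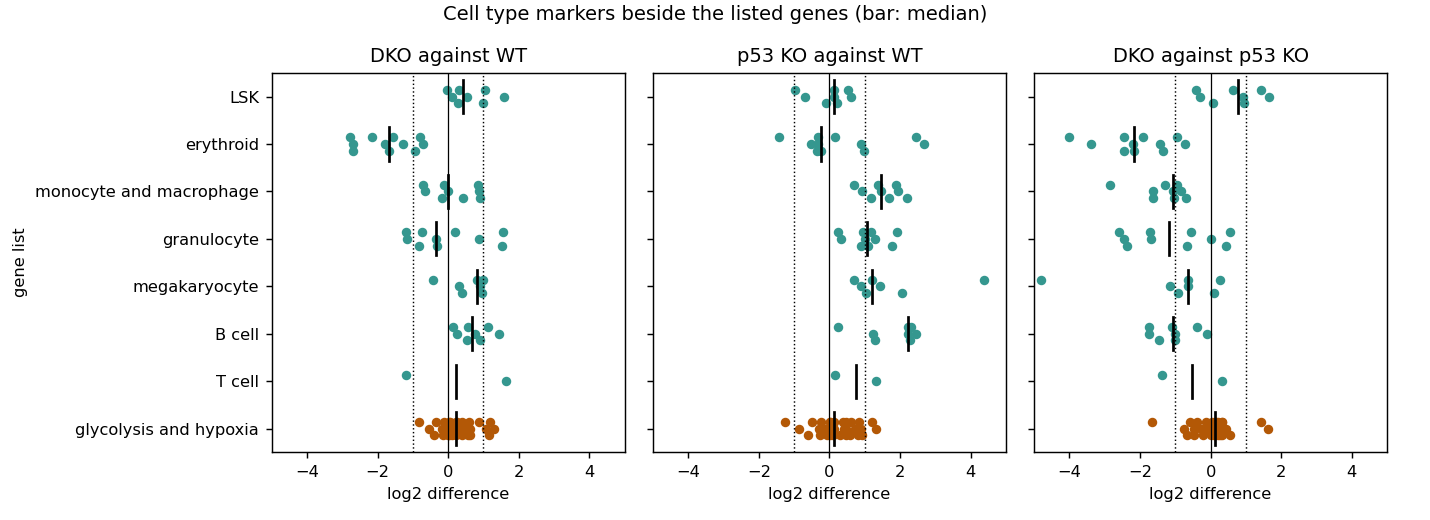
Log2 differences of measured cell type markers and of the 32 measured glycolysis, pentose phosphate and hypoxia genes for each comparison; 1 point is 1 gene, bars are medians and dotted lines 2-fold. Erythroid markers lie left of 0 in both comparisons of DKO, and monocyte, granulocyte, megakaryocyte and B cell markers lie right of 0 for p53 KO against WT.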

How the data were processed

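RNA of LSK cells of 3 genotypes was measured on 3 Affymetrix arrays, 1 per genotype. The authors deposited linear signal intensities for 45101 probe sets. GCOS and MAS5 are named in the submitters' processing notes, with no version and no genome build. The 2% trimmed mean was 500.0 on each array, so global scaling is already in the deposited intensity values. No detection calls were used, so no interval on a single signal is given.

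Symbols came from the platform annotation, updated through the Entrez ID in RefSeq (GRCm38.p6) for 34754 of 34958 probe sets with 1 symbol. A further 932 carried several symbols and 9211 none here. Each gene took its probe set with the highest mean signal, array control probe sets left out. Signals were floored at 110.4 and log2 was taken, and genes at or over the floor on any array count as measured. No test was possible with 1 array per genotype. The fold calculation was tested on simulated data.

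The members and lists were chosen with earlier results of these data known. Every listed gene may be named, and further pathway genes where at least 2-fold apart in a comparison. Alternatives were cyclic loess (limma 3.58.1, R 4.3.3, 3 iterations), quantile normalization, rescaling, centring, floors at the 25th and 75th percentile, an unfloored log2 with a pseudocount of 32, other probe set rules and thresholds of 1.5-fold and 3-fold. Calculations used Python 3.11.15 with pandas 2.3.3 and numpy 2.4.6.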

Additional observations from a re-analysis of the deposited data

How the results depend on the processing

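At 2-fold, 4 listed genes were higher and 0 lower on DKO than on WT. The counts were 2 higher and 1 lower for p53 KO against WT, and 2 higher and 1 lower for DKO against p53 KO. These counts stayed the same under rescaling, quantile normalization, cyclic loess, centring, a pseudocount and array control probe sets. With the probe set of highest maximum they did too, except that Ldhb was added to make 3 higher for DKO against p53 KO. With the mean of all probe sets they were 2 higher for DKO against WT, 0 lower for p53 KO against WT, and 0 in either direction for DKO against p53 KO. Hif1a (0.52) and Egln3 (0.97) lost 2-fold for DKO against WT, Vegfa (-0.46) for p53 KO against WT, and Pdk1 (0.91), Vegfa (0.65) and Slc16a1 (-0.83) between the knockout arrays. A floor at the 25th percentile gave 1 lower for DKO against WT and 2 lower for DKO against p53 KO, since the dim Pdk2 then counts as measured. A floor at the 75th percentile gave 0 lower for p53 KO against WT and 1 higher between the knockout arrays, since Vegfa then falls out. Plain probe sets alone gave 2 lower for p53 KO against WT, Pdk1 being added, and 3 higher for DKO against WT, as Hif1a (0.80) was lost. At 1.5-fold the counts were 8 higher and 1 lower for DKO against WT, 8 and 3 for p53 KO against WT, and 4 lower for DKO against p53 KO. At 3-fold they were 0 higher for both comparisons with WT, 0 lower for p53 KO against WT and 1 higher between the knockout arrays.

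List medians stayed above 0 under all 11 alternatives tried, at 0.08 to 0.38 for DKO against WT, 0.02 to 0.41 for p53 KO against WT and 0.01 to 0.12 between the knockout arrays. Between the knockout arrays, the list median minus that of all measured genes was 0.01 as deposited. It was -0.01 with the floor at the 25th percentile and with the pseudocount. The median of all measured genes was 0.11 for DKO against p53 KO as deposited and 0.01 after cyclic loess. Under other scalings 7 listed genes changed direction for DKO against WT, none for p53 KO against WT and 5 between the knockout arrays, all within 0.13 of 0 as deposited. No paired analysis was possible because each genotype has 1 array and the labels carry no replicate numbers. Without replicates, signal near the floor limits the values of Vegfa, Epas1 and Slc16a3.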
